A study of Mus musculus with 10 samples.

Results

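The enzymes that write and remove DNA methylation were followed in mouse embryonic stem cells while the transcription factor SOX2 was taken away. The set was chosen by gene name, with earlier results of these data known. It holds 8 genes: Dnmt1, Dnmt3a, Dnmt3b, Dnmt3l, Uhrf1, Tet1, Tet2 and Tet3. Of these, 7 were found by symbol among the 40779 transcribed units (TUs) of the series, and none of the TUs carried the symbol Dnmt3b. A TU without a gene symbol lay over the annotated Dnmt3b gene on its strand. That TU was found by position after the values had been opened, it is called the unit over Dnmt3b here, and it is left out of the counts of the 7 genes.

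DNA methylation at CpG dinucleotides is copied after replication by DNMT1, which UHRF1 brings to half-methylated sites. New methylation is set by DNMT3A and DNMT3B, helped in germ and embryonic cells by DNMT3L, a relative without enzymatic activity. TET1, TET2 and TET3 oxidise 5-methylcytosine and so start its removal. Embryonic stem cells kept with LIF and inhibitors of MEK and GSK3 are known for low DNA methylation, and cells that leave this naive state are known to raise the de novo enzymes.

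Nascent RNA was read by TT_chem_seq, in which RNA made during a short pulse of 4-thiouridine (4SU) is captured and sequenced. All 10 libraries came from E14 embryonic stem cells of genotype SOX2-FKBP, grown without serum in LIF, PD0325901 and CHIR99021, in which SOX2 carries a degron, a tag through which dTAG-13 hands the protein to the proteasome. The NT group (not treated) received DMSO, and the other groups received 500 nM dTAG-13 for 0.5, 1, 2 or 6 hours (hours post depletion, hpd), with 2 replicates in each of the 5 groups and a pulse of 10 min with 2 mM 4SU. The line was made by knock-in and picked as homozygous clones. Cells without the degron that received dTAG-13 were not analysed here, so effects of the compound and of the loss of SOX2 cannot be told apart. A degron removes protein, and no nascent RNA value checks that loss.

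Libraries held 11131490 to 25854106 fragments. All 12 naive and general pluripotency markers were tested and summed in NT to 4570 to 5020 CPM (fragments scaled to library size), against 15.7 to 21.4 CPM for the 8 tested markers of other lineages out of 20 listed. At 6 hpd, 8 of the 12 pluripotency markers had fallen, against 7.75% of tested TUs with a gene symbol. Nothing in the labels says that replicates came from separate cultures, so p-values measure the spread between libraries, which may be technical. Since cells were read in bulk, fewer cells transcribing a gene and less transcription per cell cannot be told apart.

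The places of the TUs decided what could be measured. On mm10, the unit over Dnmt3b spans chr2:153649460-153691048 on the plus strand. It covered 99.9% of the annotated gene, and 92% of its length lay over it. The Uhrf1 TU, chr17:56300533-56410150 on the plus strand, ran 86.7 kb past the end of Uhrf1. Only 18.4% of it lay over Uhrf1 and 71% over Kdm4b, a histone demethylase gene on the same strand that had no TU of its own. Its counts therefore mix both genes, and values given for Uhrf1 are those of this joint unit. Dnmt3a (chr12:3807772-3916078, plus) was 1 TU of 108 kb that began shortly after an upstream annotated start and ran over the downstream start of the deposited transcript. The Dnmt1 TU spans chr9:20898601-20952891, Tet1 chr10:62792241-62912979, Tet2 chr3:133451559-133544895 and Tet3 chr6:83357163-83456122, all on the minus strand, and Dnmt3l chr10:78049873-78066022 on the plus strand. The Tet1 TU began 25.5 kb before the annotated start. TUs cover exons and introns together.

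**Figure D1:**
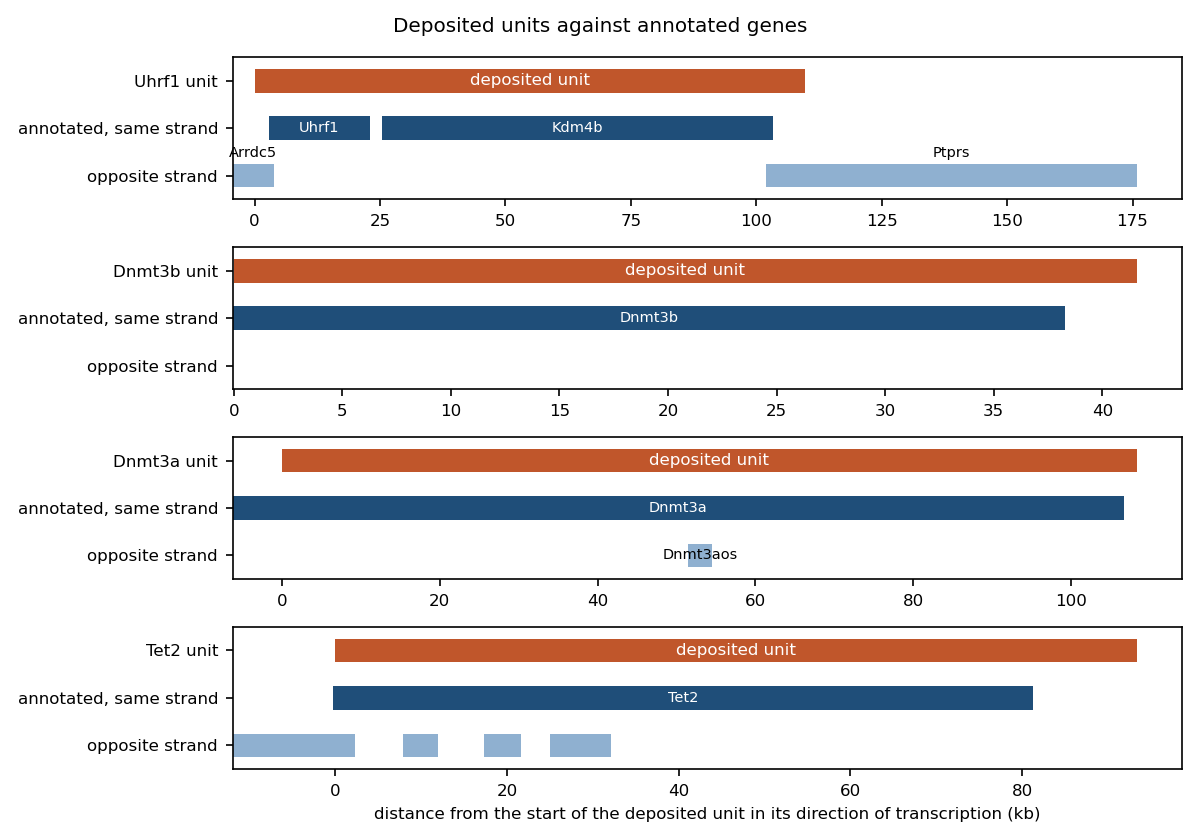
Map of 4 deposited units (orange) against annotated genes of the same strand (dark blue) and of the opposite strand (light blue, with tested opposite TUs at Uhrf1 and Tet2), along the distance in kb from the start of each unit in its direction of transcription. Predicted Gm genes and microRNAs are not drawn. The Uhrf1 unit runs on over Kdm4b, while 92% of the unit over Dnmt3b lies over that gene.

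Promoter sequences are shown for the 4 genes whose units changed in the joint test over all times given below, because the letters CG in them are the substrate of these enzymes. They are the 250 bases before an annotated start, from RefSeq on GRCm38.p6, printed 5′ to 3′ on the gene's strand with each CpG in capitals. The starts are that of Dnmt3b (chr2:153649199-153649448, plus), an upstream and the downstream start of Dnmt3a (chr12:3806730-3806979 and chr12:3891494-3891743, plus), that of Tet3 inside its TU (chr6:83441679-83441928, minus) and the second start of Uhrf1 (chr17:56304063-56304312, plus).
Dnmt3b: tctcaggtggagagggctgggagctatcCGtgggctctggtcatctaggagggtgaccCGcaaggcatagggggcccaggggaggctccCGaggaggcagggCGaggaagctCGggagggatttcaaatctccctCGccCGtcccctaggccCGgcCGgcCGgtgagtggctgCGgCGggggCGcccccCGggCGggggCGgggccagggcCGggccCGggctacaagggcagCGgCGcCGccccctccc
Dnmt3a, upstream start: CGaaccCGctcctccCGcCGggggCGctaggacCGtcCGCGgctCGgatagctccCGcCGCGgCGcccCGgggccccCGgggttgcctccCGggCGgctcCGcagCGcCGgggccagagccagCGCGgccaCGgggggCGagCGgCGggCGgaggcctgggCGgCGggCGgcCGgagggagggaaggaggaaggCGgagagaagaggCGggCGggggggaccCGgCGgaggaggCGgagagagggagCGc
Dnmt3a, downstream start: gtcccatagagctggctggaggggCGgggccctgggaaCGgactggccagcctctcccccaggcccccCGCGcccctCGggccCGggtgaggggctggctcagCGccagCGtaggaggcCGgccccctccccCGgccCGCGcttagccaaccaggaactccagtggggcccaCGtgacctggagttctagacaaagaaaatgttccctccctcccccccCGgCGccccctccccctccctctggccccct
Tet3: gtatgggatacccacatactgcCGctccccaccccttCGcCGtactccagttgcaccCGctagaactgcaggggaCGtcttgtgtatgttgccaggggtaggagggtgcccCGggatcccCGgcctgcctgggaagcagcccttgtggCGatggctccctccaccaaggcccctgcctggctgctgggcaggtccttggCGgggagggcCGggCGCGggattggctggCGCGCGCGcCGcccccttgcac
Uhrf1: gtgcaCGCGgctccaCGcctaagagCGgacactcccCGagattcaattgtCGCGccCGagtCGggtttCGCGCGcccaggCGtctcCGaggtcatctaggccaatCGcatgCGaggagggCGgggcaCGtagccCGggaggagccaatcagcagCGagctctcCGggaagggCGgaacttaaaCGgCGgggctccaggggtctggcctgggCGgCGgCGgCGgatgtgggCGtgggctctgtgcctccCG
The Dnmt3b sequence held 21 CpG, those of Dnmt3a 38 and 15, that of Tet3 17 and that of Uhrf1 30. Of the starts of these genes that are not printed, the first of Uhrf1 held 10 and the other upstream start of Dnmt3a, whose window overlaps the one shown, held 40. The median over the 32851 annotated starts was 6. Among the other members, the sequences before the 3 starts of Dnmt1 held 2, 7 and 26 CpG, those of Dnmt3l 3 to 5, that of Tet1 15 and that of Tet2 51. The SOX core CATTGT was in none of the 15 member sequences on either strand, against 10.7% of all sequences. Its variant CTTTGT was in 1, on the minus strand 60 bases before the downstream start of Dnmt3a, against 16.5% of all. The octamer ATGCAAAT (in 1.6% of all) and the E2F letters TTTCCCGC (0.895%) and TTTGGCGC (0.417%) were in none of the 15. No motif contains another, but both SOX motifs end in TTGT and both E2F motifs begin with TTT and end in CGC. An absent match says only that the letters are not in these windows.

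Before depletion the enzymes were transcribed at very different levels. Per kb of TU, the 2 NT libraries read 9.61 and 10.9 CPM per kb for Tet1, 4.51 and 4.58 for Tet2, 4.21 and 4.02 for Dnmt1 and 3.51 and 3.46 for the Uhrf1 unit. These 4 lay at or above the 90.3 percentile of the 14997 tested TUs with a gene symbol, whose median was 0.777 CPM per kb. The unit over Dnmt3b came next, with 1.28 in both libraries. Dnmt3a (0.298 and 0.267), Tet3 (0.163 and 0.17) and Dnmt3l (0.1 and 0.126) lay below the median. The NT ranges of neighbours in this order did not overlap, but with 2 libraries in the group no test of the order was made. The place of Dnmt3a in the order also depends on the length of its TU. These 108 kb include the stretch between the upstream and the downstream start, and counts do not separate transcripts of the 2 starts. Dnmt1 of maintenance, Tet1 and Tet2 of oxidation and the joint Uhrf1 unit were thus read at high levels per kb, and the de novo enzymes and Tet3 at lower ones. The share of Uhrf1 itself in the level of the joint unit cannot be told apart from that of Kdm4b.

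**Figure D2:**
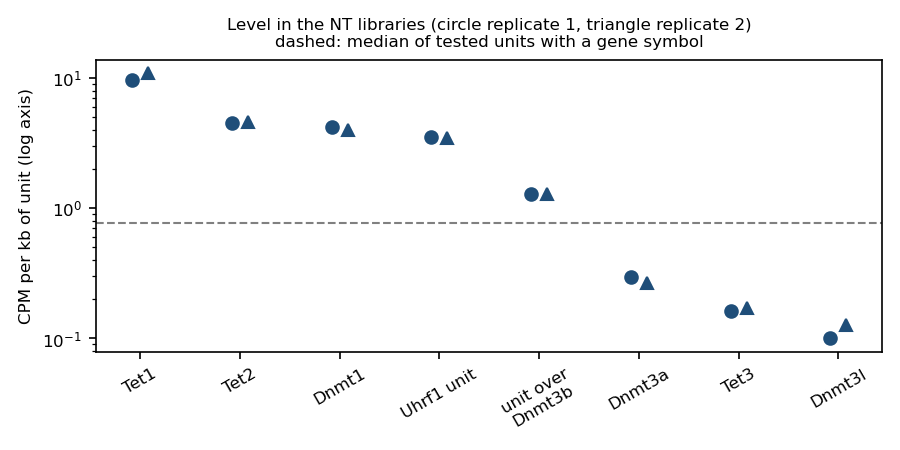
Level of each unit in the 2 NT libraries in CPM per kb of TU on a log axis, with the dashed line at the median of tested TUs with a gene symbol (0.777). Tet1, Tet2, Dnmt1 and the Uhrf1 unit lie above 3 CPM per kb, and Dnmt3a, Tet3 and Dnmt3l below the dashed line.

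How the levels moved after SOX2 loss was tested at each time against NT by edgeR's quasi-likelihood test, with Benjamini-Hochberg adjustment over all 28459 tested TUs and a call at an adjusted p under 0.05. Of the 7 genes found by symbol, none was called at 0.5 hpd, where 1.31% of all tested TUs were called, and none at 1 hpd, where 5.75% were. At an unadjusted p under 0.05 there were 0 and 1, and DESeq2 called 0 at both times, but at 1 hpd total counts only gave 2 fallen, and only the libraries compared gave 1 risen and 1 fallen. At 2 hpd 1 of 7 fell (5.57% of all TUs and 5.34% of those with a gene symbol fell) and 0 rose (4.26% and 6.88%). At 6 hpd 2 of 7 rose (6.61% and 10.4%) and 1 fell (9.2% and 7.75%). The fall at both times was that of the joint Uhrf1 unit, which lies mostly over Kdm4b. That unit is also among those called in the joint test that follows. In the joint test over the 4 times 3 of 7 were called, against 12.3% of all TUs, and 1 of 7 without 6 hpd replicate 2. The median log2 fold change of the 7 was -0.073, -0.016, 0.127 and -0.016 at 0.5, 1, 2 and 6 hpd, beside -0.022, -0.043, -0.040 and -0.036 over all tested TUs and 0.007, 0.024, 0.047 and 0.071 over those with a symbol, so at 1 and 6 hpd it lay above the first and below the second. The comparisons share the NT libraries.

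The unit over Dnmt3b, the de novo methyltransferase gene, rose at every time. It read 53.2 and 53.3 CPM in NT, 84.0 and 80.9 after 0.5 h, 95.8 and 94.0 after 1 h, 79.1 and 67.8 after 2 h and 71.2 and 77.0 after 6 h. Every depleted library lay above both NT libraries, and the 1 hpd pair was the highest. In order of time, the log2 fold changes were 0.63 ± 0.10 (SE, n = 2 against 2), 0.83 ± 0.10, 0.46 ± 0.10 and 0.48 ± 0.11. These are 1.55, 1.78, 1.38 and 1.39 times the NT level, with adjusted p of 0.0067, 0.00019, 0.010 and 0.0061 (edgeR) and 0.00079 in the joint test. Of all tested TUs, 0.527% rose at 0.5 hpd and 2.15% at 1 hpd. The fall from 1 to 2 hpd, -0.37 ± 0.10, did not pass over all TUs (adjusted p = 0.31, edgeR), nor did the steps on either side. The earliest call did not hold without NT replicate 1 (0.63, adjusted p = 0.051), NT replicate 2 (0.64, 0.077) or 0.5 hpd replicate 1 (0.60, 0.054). Nor did the 2 hpd call hold without NT replicate 2 (0.47, 0.064) or without 2 hpd replicate 1 (0.35, 0.10), or the 6 hpd call without 6 hpd replicate 2 (0.42, 0.071). The call at 1 hpd held without any 1 library.

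Dnmt3a, the other de novo methyltransferase gene, rose late. It read 32.2 and 28.9 CPM in NT, 30.6 and 27.4 after 0.5 h, 32.6 and 28 after 1 h, 43.2 and 35.6 after 2 h and 47.8 and 45.2 after 6 h. The first 2 times overlapped NT, and all libraries at 2 and 6 hpd lay above it. The log2 fold change was -0.07 ± 0.13 and -0.02 ± 0.13 at 0.5 and 1 hpd, 0.37 ± 0.13 at 2 hpd (adjusted p = 0.083, edgeR) and 0.60 ± 0.13 at 6 hpd (1.52 times NT, adjusted p = 0.0044), with a joint adjusted p of 0.0040. At 1 hpd it was 0.01 with RLE factors, with only the libraries compared and in DESeq2 and 0.0048 with no filter, so no direction is given for that time. The step from 1 to 2 hpd was 0.38 ± 0.13 (adjusted p = 0.49, edgeR). Without NT replicate 2 the change at 6 hpd was 0.55 with an adjusted p of 0.051, and without 2 hpd replicate 2 that at 2 hpd was 0.49 and passed (0.030). The change at 2 hpd was 0.22 without 2 hpd replicate 1 (adjusted p = 0.54) and 0.29 without NT replicate 2 (0.37). Counts do not separate transcripts of the upstream and the downstream start, and counting by strand kept the annotated antisense gene Dnmt3aos out of it.

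Dnmt3l, the cofactor of the de novo enzymes, was read too thinly for small changes to be detectable. Its TU held 22 to 66 fragments per library, or 1.28 to 2.58 CPM. The log2 fold changes were 0.44 ± 0.31, -0.02 ± 0.33, 0.34 ± 0.32 and -0.15 ± 0.34 at 0.5, 1, 2 and 6 hpd, none of them called, with 95% confidence intervals as wide as -0.87 to 0.57 at 6 hpd. The sign at 1 hpd turned with RLE factors, no filter, only the libraries compared and DESeq2 (each 0.01 or less).

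**Figure D3:**
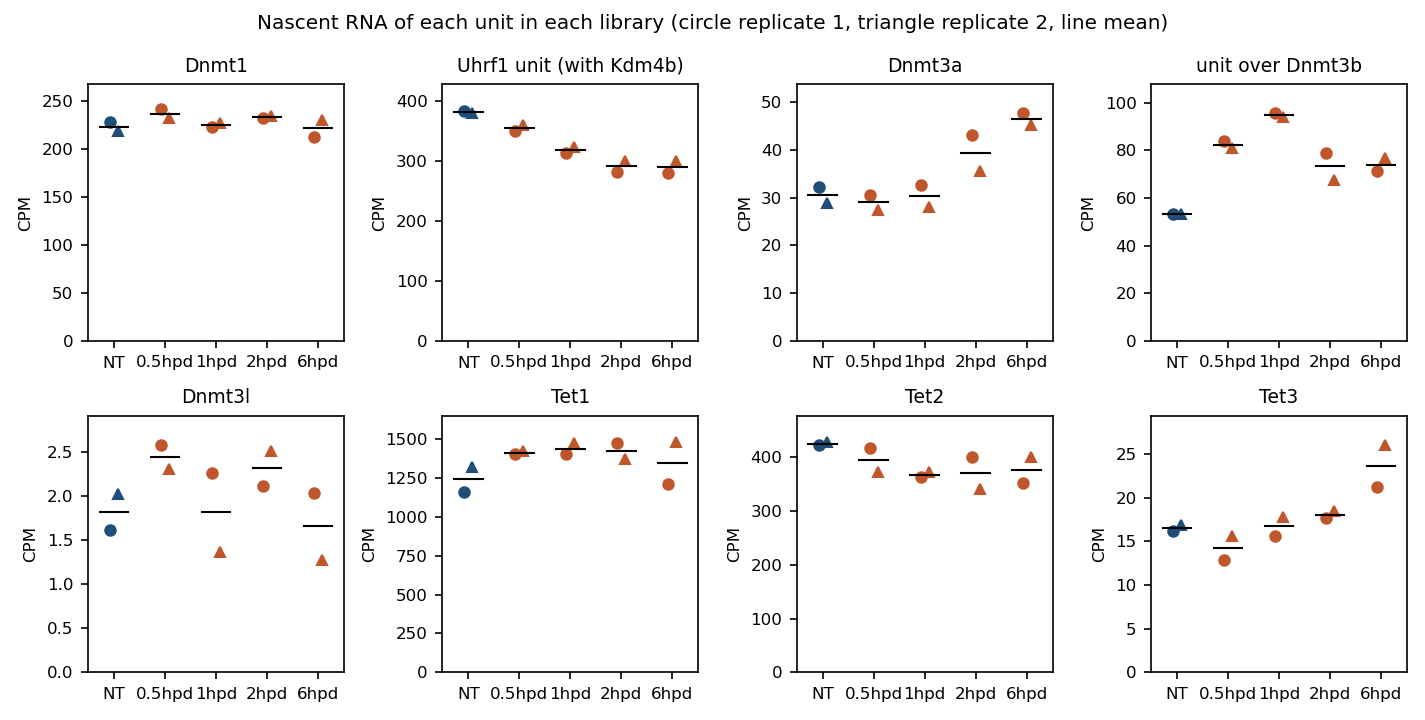
CPM of each unit in each library by group (NT in blue, 0.5 to 6 hpd in orange), with circles for replicate 1, triangles for replicate 2 and a line at the mean of 2 libraries; each vertical axis starts at 0 CPM. The unit over Dnmt3b stands above NT at every time, Dnmt3a and Tet3 at 2 and 6 hpd, and the Uhrf1 unit goes down from 384 and 380 to 281 and 301 CPM.

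Of the maintenance genes, Dnmt1 stayed within a narrow band and the Uhrf1 unit fell. Dnmt1 read 228 and 218 CPM in NT, 241 and 232 after 0.5 h, 223 and 227 after 1 h, 232 and 234 after 2 h and 212 and 230 after 6 h. Its log2 fold changes were 0.08, 0.01, 0.06 and -0.02, each ± 0.097, with adjusted p of 0.74 to 0.97 (edgeR). The 95% confidence intervals bound the change to between -0.22 and 0.29 at all 4 times. The sign at 1, 2 and 6 hpd depended on the scaling or filter, so no direction is given.

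The Uhrf1 unit, which joins Uhrf1 and Kdm4b, read 384 and 380 CPM in NT, 351 and 361 after 0.5 h, 313 and 324 after 1 h, 282 and 301 after 2 h and 281 and 301 after 6 h. No depleted library reached the NT range at any time. The log2 fold change was -0.10 ± 0.098 at 0.5 hpd and -0.26 ± 0.098 at 1 hpd, which did not pass (adjusted p = 0.85 and 0.16, edgeR). It was -0.39 ± 0.098 at both 2 hpd (adjusted p = 0.020) and 6 hpd (0.013), or 0.763 and 0.761 times the NT level, and the joint adjusted p was 0.032. Between 2 and 6 hpd it was level, with a difference of -0.00 ± 0.098. With only the libraries compared, the change at 2 hpd was the same size and lost its call (adjusted p = 0.12), and that at 1 hpd was called (-0.24, 0.033), as it was with total counts only (-0.35, 0.028). At 2 hpd the call was also lost without NT replicate 1 (-0.38, 0.077), NT replicate 2 (-0.40, 0.10) or 2 hpd replicate 1 (-0.34, 0.094). At 6 hpd it was lost without NT replicate 1 (-0.37, 0.061), NT replicate 2 (-0.38, 0.087) or 6 hpd replicate 1 (-0.33, 0.13). Which of the 2 genes moved cannot be told apart in these counts. Of 21 listed S-phase genes 19 were tested, and 0 of them were called in the joint test by edgeR (0 at an unadjusted p under 0.05), where 12.3% of all TUs were. At 6 hpd 1 of the 19 fell and 0 rose, where 7.75% and 10.4% of tested TUs with a gene symbol did.

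Of the TET genes, Tet1, the most transcribed member, read 1160 and 1320 CPM in NT and 1210 to 1480 in the 8 depleted libraries. Its log2 fold changes were 0.19, 0.21, 0.20 and 0.12, each ± 0.12, with adjusted p of 0.34 to 0.72 (edgeR). Both libraries at each of 0.5, 1 and 2 hpd lay above both NT libraries, and those at 6 hpd, 1210 and 1480, overlapped NT. With only the libraries compared, the change at 1 hpd was called at 0.23 (adjusted p = 0.049).

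Tet2 read 421 and 428 CPM in NT, 416 and 371 after 0.5 h, 362 and 371 after 1 h, 399 and 341 after 2 h and 351 and 400 after 6 h. All 8 depleted libraries lay below both NT libraries. The log2 fold changes of -0.11, -0.21, -0.20 and -0.18, each ± 0.11, did not pass (adjusted p of 0.30 to 0.87, edgeR). With total counts only, which lowered the median of all tested TUs at 2 hpd from -0.040 to -0.155, Tet2 was called at 1 hpd (-0.30, adjusted p = 0.032), 2 hpd (-0.32, 0.016) and 6 hpd (-0.27, 0.030).

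Tet3 was the 1 TET gene called. It read 16.2 and 16.9 CPM in NT, 12.9 and 15.6 after 0.5 h, 15.6 and 17.8 after 1 h, 17.6 and 18.5 after 2 h and 21.2 and 26.0 after 6 h. Both libraries at 0.5 hpd lay below NT, and both at 2 hpd and at 6 hpd above it. The log2 fold changes were -0.23 ± 0.15, 0.02 ± 0.15 and 0.13 ± 0.14 at the first 3 times, none of them called, and 0.52 ± 0.14 at 6 hpd (1.43 times NT, adjusted p = 0.022, edgeR; joint 0.018). The step from 2 to 6 hpd, 0.39 ± 0.14, did not pass (adjusted p = 0.27). The call at 6 hpd was lost with total counts only (0.43, adjusted p = 0.086), without NT replicate 1 (0.51, 0.074), without NT replicate 2 (0.57, 0.078) and without 6 hpd replicate 2 (0.36, 0.22).

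**Figure D4:**
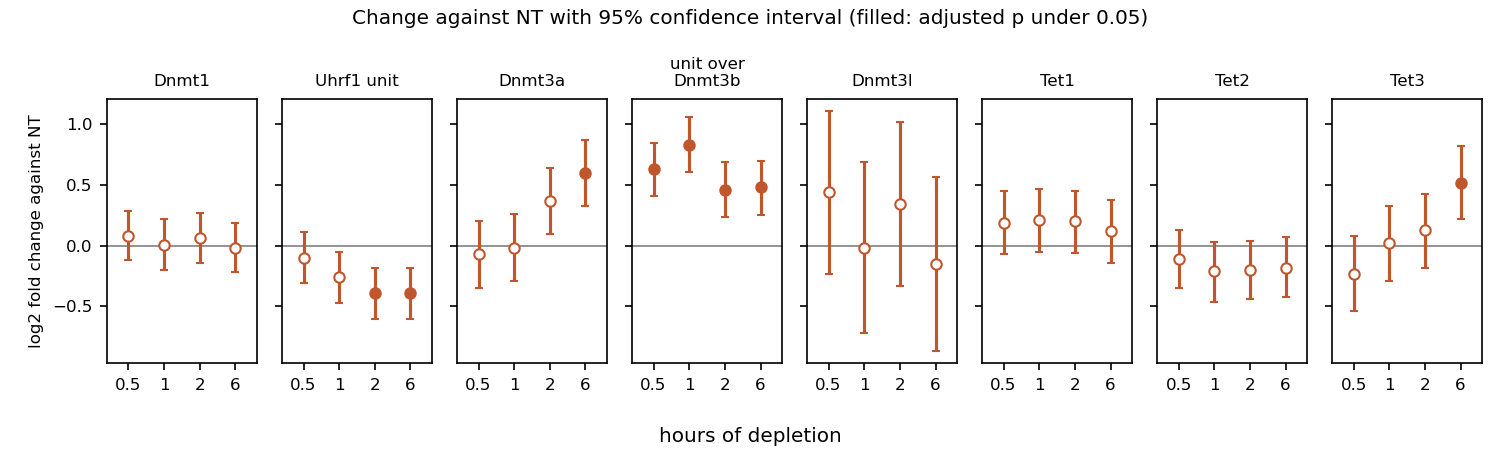
Log2 fold change of each unit against NT with its 95% confidence interval, by hours of depletion (0.5, 1, 2 and 6 h); filled points passed an adjusted p under 0.05 over 28459 TUs. The unit over Dnmt3b is filled at all 4 times and highest at 1 hpd (0.83), Dnmt3a and Tet3 are filled at 6 hpd (0.60 and 0.52), and the Uhrf1 unit at 2 and 6 hpd (-0.39).

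Between successive times, none of the 7 genes was called from 0.5 to 1 hpd (0.109% of all TUs called), from 1 to 2 hpd (0.218%) or from 2 to 6 hpd (0.777%). At an unadjusted p under 0.05 there were 0, 1 and 1, and DESeq2 called 0 in each step. The timing of the rises and falls above is therefore the order in which comparisons with NT passed, and no time was shown to differ from the one before it.

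At Tet2, transcription of the opposite strand fell. All 4 tested TUs opposite Tet2 fell at 2 hpd (5.57% of all tested TUs fell), and 2 of the 4 fell at 6 hpd (9.2%). In the joint test, which 12.3% of all tested TUs passed, 1 of the 4 did (adjusted p = 0.042, edgeR, against 0.060, 0.068 and 0.093 for the others). One of them, chr3:133542558-133556822, began inside the first part of the gene and ran away from it, with a log2 fold change of -1.09 ± 0.29 after 2 h (adjusted p = 0.029, edgeR) and -1.06 ± 0.30 at 6 hpd (0.026). The other 3 lay within the gene body, at chr3:133512824-133519916 (-1.78 ± 0.39 at 2 hpd, adjusted p = 0.0091; -1.19 ± 0.38 at 6 hpd, 0.044), chr3:133523257-133527518 (-1.65 ± 0.45 at 2 hpd, 0.029) and chr3:133532876-133536936 (-1.53 ± 0.37 at 2 hpd, 0.016). Summed over the 4 TUs, a sum made after the values were seen, the NT libraries held 7.2 and 8.36 CPM, which became 4.21 and 4.45 after 0.5 h, 3.58 and 4.73 after 1 h, 2.93 and 2.75 after 2 h and 2.88 and 4.31 after 6 h. The means were 55.7%, 53.4%, 36.5% and 46.2% of NT at 0.5, 1, 2 and 6 hpd, while the sense Tet2 TU stood at 92.7%, 86.2%, 87.1% and 88.5%. These TUs were thin, at 41 to 115 fragments per library for all 4 together. DESeq2 called none of the 6 falls, giving no adjusted p for 3 of them and 0.12, 0.14 and 0.19 for the others. With no filter, the call at 6 hpd of chr3:133512824-133519916 was lost (-1.17, adjusted p = 0.054). Leaving out NT replicate 2 lost all 6 calls (adjusted p of 0.066 to 0.29, log2 fold changes of -0.89 to -1.57), and 5 of the 6 were also lost without some other library of NT, 1, 2 or 6 hpd (adjusted p of 0.052 to 0.22).

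**Figure D5:**
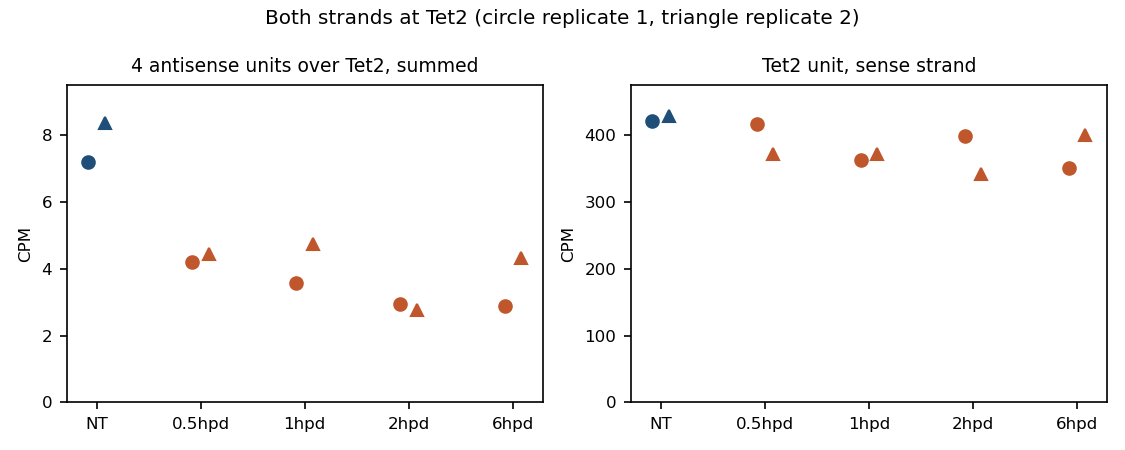
CPM in each library of the 4 tested TUs opposite Tet2, summed (left), and of the sense Tet2 TU (right), by group, with circles for replicate 1 and triangles for replicate 2. The opposite strand goes from 7.2 and 8.36 CPM in NT to 2.93 and 2.75 at 2 hpd, and sense Tet2 from 421 and 428 to 399 and 341.

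Around the other members, 15 TUs on the opposite strand or without a symbol within 50 kb were tested, and the 2 called in the joint test (12.3% of all tested TUs were) lay at the Uhrf1 unit. Arrdc5, an arrestin domain gene whose TU overlaps the start of the Uhrf1 unit on the opposite strand, fell at 1 hpd (-1.19 ± 0.33, adjusted p = 0.047, edgeR), 2 hpd (-1.52 ± 0.34, 0.0094) and 6 hpd (-1.56 ± 0.35, 0.0065), from 57 and 75 fragments in NT to 25 and 24 at 6 hpd. Ptprs, a receptor tyrosine phosphatase gene that overlaps its far end, rose at 2 hpd (0.39 ± 0.11, 0.037) and 6 hpd (0.74 ± 0.11, 0.00036). Without NT replicate 2, Arrdc5 lost its call at 1 hpd (-0.90, adjusted p = 0.36), 2 hpd (-1.25, 0.13) and 6 hpd (-1.27, 0.097), and its call at 1 hpd was lost in DESeq2 (-1.17, 0.069). That call was also lost without NT replicate 1 or either library at 1 or 6 hpd (adjusted p of 0.060 to 0.37), the call at 2 hpd without 2 hpd replicate 1 (-1.22, 0.11) and that at 6 hpd without 6 hpd replicate 2 (-1.40, 0.074). The call of Ptprs at 2 hpd was lost with total counts only (0.28, adjusted p = 0.16) and with only the libraries compared (0.39, 0.11), and without any 1 library of NT, 1 or 2 hpd (0.36 to 0.41, adjusted p of 0.053 to 0.18). None of the 2 tested TUs opposite Tet1, the 1 opposite Tet3 (Bola3) or the unnamed TUs near Dnmt1, Dnmt3l and the unit over Dnmt3b was called at any time.

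Genes that work with these enzymes were counted from 4 lists of partners, demethylation and repair, readers and methyl donor supply, of which 53 of 61 genes were tested. At 0.5, 1, 2 and 6 hpd, 0, 3, 4 and 5 rose and 1, 1, 1 and 8 fell. Leaving out 1 library gave 0 to 2, 1 to 5, 1 to 7 and 1 to 10 pathway genes risen and 3 to 9 fallen at 6 hpd. DESeq2 gave 4 fallen at 6 hpd, and total counts only gave 6 fallen at 2 hpd. In the same order 0.834%, 3.55%, 6.88% and 10.4% of tested TUs with a gene symbol rose and 0.813%, 3.57%, 5.34% and 7.75% fell. The medians of the 53 were -0.010, 0.002, 0.026 and 0.022, beside 0.007, 0.024, 0.047 and 0.071 for TUs with a symbol.

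Prdm14, a repressor of the de novo enzymes in naive cells, was the 1 gene of the 17 tested partners called in the joint test (adjusted p = 1.6e-06, edgeR), where 12.3% of all tested TUs were. It fell at all 4 times, from 67.8 ± 7.0 CPM in NT (SD, n = 2) to 34.8 ± 2.2, 24.5 ± 0.14, 27.7 ± 0.85 and 32.1 ± 0.040. The log2 fold changes were -0.96 ± 0.11, -1.47 ± 0.11, -1.29 ± 0.11 and -1.08 ± 0.11.

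Of 15 tested genes of demethylation and repair, 4 were called in the joint test, where 12.3% of all tested TUs were. At 1, 2 and 6 hpd 3 genes rose each time and 0, 0 and 2 fell. Of tested TUs with a gene symbol, 3.55%, 6.88% and 10.4% rose and 3.57%, 5.34% and 7.75% fell at these times. Neil2, a DNA glycosylase gene, rose at 1 hpd (0.99 ± 0.11, adjusted p = 8.9e-05, edgeR) and 2 hpd (1.00 ± 0.11, 3.9e-05), from 90.5 ± 15 CPM to 180 ± 3.5 and 182 ± 5.8, and read 94.0 ± 0.18 at 6 hpd. Parp1, a poly(ADP-ribose) polymerase gene, fell at 6 hpd from 205 ± 0.49 to 144 ± 5.6 CPM (-0.51 ± 0.095, adjusted p = 0.0018). Gadd45g, a stress-inducible gene, rose at 1, 2 and 6 hpd, from 1.41 ± 0.57 to 5.28 ± 1.1 CPM at 6 hpd (1.91 ± 0.33, adjusted p = 0.0011). Its calls at 1 and 2 hpd (1.29 and 1.25) were lost with total counts only (adjusted p = 0.073 and 0.064) and with a mean of at least 50 fragments (0.060 and 0.051). Both were also lost without either NT library or either library of their own time (adjusted p of 0.052 to 0.30). Its log2 fold changes at 6 hpd ranged from 1.56 to 2.41 when 1 library was left out.

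Among 7 tested methyl-CpG readers, Mbd2 rose at 6 hpd from 109 ± 6.6 to 163 ± 6.4 CPM (0.58 ± 0.13, adjusted p = 0.0056, edgeR). Of 14 tested genes of methyl donor and cofactor supply, 4 fell and 0 rose at 6 hpd, where 7.75% of tested TUs with a symbol fell and 10.4% rose. Among them Shmt1, which charges folate with 1-carbon units, fell from 92.3 ± 0.85 to 70.7 ± 5.4 CPM (-0.38 ± 0.097, adjusted p = 0.014). Without NT replicate 2, the call of Mbd2 (0.54, adjusted p = 0.068) and that of Shmt1 (-0.35, 0.094) were lost, and Shmt1 also without 6 hpd replicate 1 (-0.30, 0.16).

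Dnmt3b is itself a known marker of primed cells, and the other 5 tested primed-state markers moved both ways. Zic2, Zic5 and Otx2, transcription factor genes, fell at all 4 times, and Pou3f1 and Etv4 rose at 2 and 6 hpd. Pou3f1 went from 0.283 ± 0.11 CPM in NT to 2.65 ± 0.37 at 6 hpd (3.22 ± 0.42, adjusted p = 9.6e-05, edgeR), and Zic5 from 29.6 ± 1.9 to 8.23 ± 0.71 (-1.84 ± 0.14, 6.5e-07). Of the naive markers, Nr0b1, Klf4 and Tdh had the smallest joint p, and at 6 hpd they read 8.19 ± 1.1, 53.8 ± 4.1 and 180 ± 19 CPM, against 26.2 ± 5.3, 111 ± 12 and 365 ± 27 in NT. Of 8 tested markers of other lineages 1, 1, 2 and 0 rose at 0.5, 1, 2 and 6 hpd, where 0.834%, 3.55%, 6.88% and 10.4% of tested TUs with a symbol did. Eomes rose at the first 3 times (1.52 ± 0.21, 1.64 ± 0.20 and 1.79 ± 0.20, adjusted p = 0.0015, 0.00018 and 4e-05), its level being 2.42 ± 0.38 CPM in NT and 8.40 ± 1.1 after 2 h, and read 3.33 ± 0.24 at 6 hpd (0.47 ± 0.22, 0.18). Gata6, named after its values were seen, changed by 1.14 at 2 hpd (adjusted p = 0.029). At 6 hpd 0 of the 8 were called by edgeR (1 at an unadjusted p under 0.05), and the summed level of the 8 was 28.6 to 29.2 CPM at 0.5 hpd, 23.5 to 27.6 at 1 hpd, 24.0 to 28.4 at 2 hpd and 19.7 to 23.8 at 6 hpd, against 15.7 to 21.4 in NT. The part of these moves in the values of the enzymes was not tested.

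The genes whose log2 CPM over the 10 libraries went most closely with a called member are given as a description, since all points share their libraries and groups. Dnmt3a went with 2610301B20Rik (Pearson's r = 0.988), Zfp318 (0.984) and Gm39794 (0.984). The unit over Dnmt3b went with Dnajc21 (0.949), Map6 (0.938) and Gm40040 (0.932). Tet3 went with Prkg2 (0.976), Parp4 (0.961) and Fam160a1 (0.957). The Uhrf1 unit went with Fgf4 (0.991), Olfr45 (0.990) and the TU named Olfr836;Olfr837 (0.988). Likeness in shape was not likeness in size, as Fgf4 had a log2 fold change of -1.42 at 6 hpd where the Uhrf1 unit had -0.39.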

How the data were processed

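Raw fragment counts per TU in 10 TT_chem_seq libraries were deposited by the authors without normalization, with TU positions on mm10. As its methods describe, alignment by the authors used BWA 0.7.17-r1188, filtering SAMtools 1.10 and duplicate removal Picard 2.12.0; alignments were split by strand and TUs called on pooled libraries with a hidden Markov model, so TU ends are shared by all libraries.

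The 28459 of 40779 TUs that exceeded 10 fragments in 2 or more libraries were fitted in edgeR 4.0.16 (R 4.3.3, limma 3.58.1) with TMM scaling and a coefficient for each group across the 10 libraries, by the quasi-likelihood F-test with Benjamini-Hochberg adjustment. CPM used TMM factors, and log2 CPM a prior count of 2. SEs were derived from F and the fitted change. Totals of 11131490 to 25854106 fragments set the precision. The biological coefficient of variation was 10%. No pair of replicates agreed within counting error, so none was a library deposited in duplicate. All 131 list symbols were found in RefSeq GRCm38.p6.

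The named genes were all members, up to 3 called genes of each list with the smallest joint p, every called TU around a member and the 3 genes most like each member called jointly. Apart from these, Otx2, Etv4, Gata6, Zfp42 and Tfcp2l1 were named after their values were seen. The members and lists were chosen with earlier results of these data known. Alternatives were DESeq2 1.42.0, RLE factors, total counts only, no filter, a mean of at least 50 fragments, a block for the replicate number, a fit to only the libraries compared, and leaving out each library. For TUs around members they were chosen after seeing the data. Deposited starts are likely to be 1 bp low.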

Additional observations from a re-analysis of the deposited data

How the results depend on the processing

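Of the counts of the 7 members, total counts only gave 2 fallen at 1, 2 and 6 hpd (0, 1 and 1 reported) and 1 risen at 6 hpd (2 reported). Only the libraries compared gave 1 risen and 1 fallen at 1 hpd (0 and 0 reported) and 0 fallen at 2 hpd. DESeq2, RLE factors, no filter and a mean of at least 50 fragments, which left out Dnmt3l, gave counts of members within 1.5 times those reported. Leaving out 1 library gave 0 to 1 risen at 2 hpd, 0 to 2 risen at 6 hpd, 0 to 1 fallen at 2 hpd and at 6 hpd and 1 to 3 in the joint test; a lone library in a group was assumed to vary like the other groups.

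Replicate numbers are shared between groups, but the labels do not say what they mark, and the deviations of same-numbered libraries correlated at 0.0742 to 0.291 over 10 pairs of groups. With the replicate number as a block, 1 member rose at 2 hpd (Dnmt3a, 0.37, adjusted p = 0.0090, edgeR), where 0 were reported, and 4, 6, 10 and 9 pathway genes rose and 6 fell at 2 hpd. The block changed no other call of a member or of the unit over Dnmt3b.

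For the pathway lists, genes risen at 0.5 hpd (0 reported) were 1 with total counts only, 2 with a mean of at least 50 fragments and 1 in DESeq2. Risen at 1, 2 and 6 hpd (3, 4 and 5 reported) were 1, 1 and 3 with total counts only and 9, 2 and 10 with only the libraries compared. Pathway genes fallen at 2 hpd (1 reported) were 6 with total counts only and 4 with a mean of at least 50 fragments. Those fallen at 6 hpd (8 reported) were 5 with RLE factors, 4 with no filter and 4 in DESeq2. Leaving out 1 library gave 0 to 2, 1 to 5, 1 to 7 and 1 to 10 risen at the 4 times, 1 to 2 fallen at 2 hpd and 3 to 9 fallen at 6 hpd. The cause of these shifts was not tested.

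For members, signs turned only where a change was not called. Dnmt1 was -0.08 and -0.05 at 1 and 2 hpd with total counts only, -0.0036 at 1 hpd with a mean of at least 50 fragments, and 0.01 at 6 hpd with RLE factors, no filter and DESeq2. At 1 hpd, Dnmt3a was 0.01 with RLE factors, only the libraries compared and DESeq2 and 0.0048 with no filter, Dnmt3l was 0.01 in the first 3 of these and 0.0046 with no filter, and Tet3 was -0.07 with total counts only. Without 1 library, Dnmt1 ran from -0.0016 to 0.06 at 1 hpd and -0.07 to 0.05 at 6 hpd, Dnmt3a from -0.16 to 0.01 at 0.5 hpd and -0.13 to 0.09 at 1 hpd, Dnmt3l from -0.41 to 0.31 at 1 hpd and -0.49 to 0.16 at 6 hpd, Tet1 from -0.03 to 0.27 at 6 hpd and Tet3 from -0.09 to 0.11 at 1 hpd. Low fragment counts limited what could be detected for Dnmt3l (22 to 66 per library).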
